A study of Mus musculus with 6 samples.

Results

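The genes described here are the chimaerins Chn1 and Chn2 and the coronins Coro1a, Coro1b, Coro1c, Coro2a, Coro2b, Coro6 and Coro7, 9 of the 43280 gene rows in an unfiltered table of raw RNA-seq counts. Chn2 and Coro2a were chosen by their measured difference between the genotypes, so their change is given as a description without a test, and their 7 paralogs were taken by family name. All 9 are annotated as protein coding in GENCODE M21, and all 9 had enough counts to be tested. The samples were submandibular glands (SMGs) of female mice, 3 wildtype (WT) and 3 Hs3st3a1;Hs3st3b1 double-knockout (DKO), with libraries numbered 1, 4 and 5 in each group.

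The DKO mice carried a frameshift deletion made with zinc finger nucleases in the first exon of Hs3st3a1 together with a LacZ cassette at Hs3st3b1, on a single allele, made in embryos of a line kept on a C57BL/6 background. Both losses were constitutive, not limited to a tissue, and no other allele and no treatment are named for either group. Per the study's methods the glands were adult and the WT mice were littermates. Age in weeks and the founder line of these glands are not given in the sources used here. The labels do not say that each library came from a separate mouse, so the p-values below measure the spread between these libraries, which may be partly technical. These are whole glands, in which fewer cells of a type and less RNA per cell cannot be told apart.

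Chimaerins are GTPase-activating proteins that switch off the small GTPase Rac. They carry a C1 domain that binds the lipid second messenger diacylglycerol, which brings them to the membrane, and their longer forms also have an SH2 domain. Coronins are actin-binding proteins built on a WD-repeat propeller. Type I coronins (Coro1a, Coro1b, Coro1c and Coro6) act with the Arp2/3 complex and cofilin on branched actin networks, type II coronins are Coro2a and Coro2b, and the type III coronin Coro7 is a tandem protein of the Golgi. Coro2a is also known as a component of the NCoR corepressor complex. In salivary glands, actin lies under the apical membrane where acinar cells release granules and fills the contractile myoepithelial cells that wrap the acini.

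Total counts ran from 23674258 to 29611975 per library. The targeted genes did not separate the groups. Hs3st3a1 had 15, 11 and 15 counts in WT 1, 4 and 5 and 11, 8 and 13 in DKO 1, 4 and 5, and Hs3st3b1 had 173, 203 and 261 against 255, 120 and 189, so the groups below are named as the labels name them. Counts over a whole gene do not read a small frameshift, and which exons the counted Hs3st3b1 reads covered was not given in the sources used here. WT 5 and DKO 1 stood apart from the other libraries, as seen in genes chosen after their values were seen. The gel mucin Muc19 had 62150 counts in WT 5 and 3906 in DKO 1 against 27 to 120 in the other 4 libraries, and renin (Ren1) had 93 and 119 counts against 11964 to 49381. The differences of Chn2, Coro2a, Coro1a and Coro6 are therefore also given without these 2 libraries.

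Chn2, which encodes beta-chimaerin, lies on the plus strand of chr6:54039554-54301810 in GRCm38. It was higher in every library labelled DKO. Normalized counts (raw counts divided by DESeq2 size factors) of Chn2 were 95, 60.6 and 64.5 in WT 1, 4 and 5 and 171, 255 and 270 in DKO 1, 4 and 5. The groups did not overlap, and the lowest DKO library stood 1.80 times above the highest WT library. The means were 73.4 ± 18.8 (SD, n = 3) in WT and 232 ± 53.4 (SD, n = 3) in DKO, a 3.16-fold level with a 95% interval of 2.24 to 4.46. On the log2 scale the difference was 1.66 with a standard error of 0.25. The intervals given for Chn2 and Coro2a do not allow for their choice by this contrast. DKO 1 was the lowest of the DKO libraries and WT 1 the highest of the WT libraries. Without WT 5 and DKO 1 together the log2 difference of Chn2 was 1.75.

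Chn1, the alpha-chimaerin gene known mainly from neurons (chr2:73610660-73775346, minus strand), was near the limit of detection. It had 14, 16 and 16 raw counts in WT 1, 4 and 5 and 5, 15 and 5 in DKO 1, 4 and 5. DKO 4 lay within the WT range and the other DKO libraries under it, so the groups overlapped. Normalized counts of Chn1 averaged 14.6 ± 0.931 (SD, n = 3) and 8.73 ± 6.04 (SD, n = 3). The log2 difference of -0.74 had a standard error of 0.67 and a DESeq2 adjusted p of 0.744 over all 18606 rows tested. Its 95% interval, -2.07 to 0.58, reached from a drop larger than the Coro2a difference to a rise, and counts this low could not place Chn1 on either side.

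**Figure D1:**
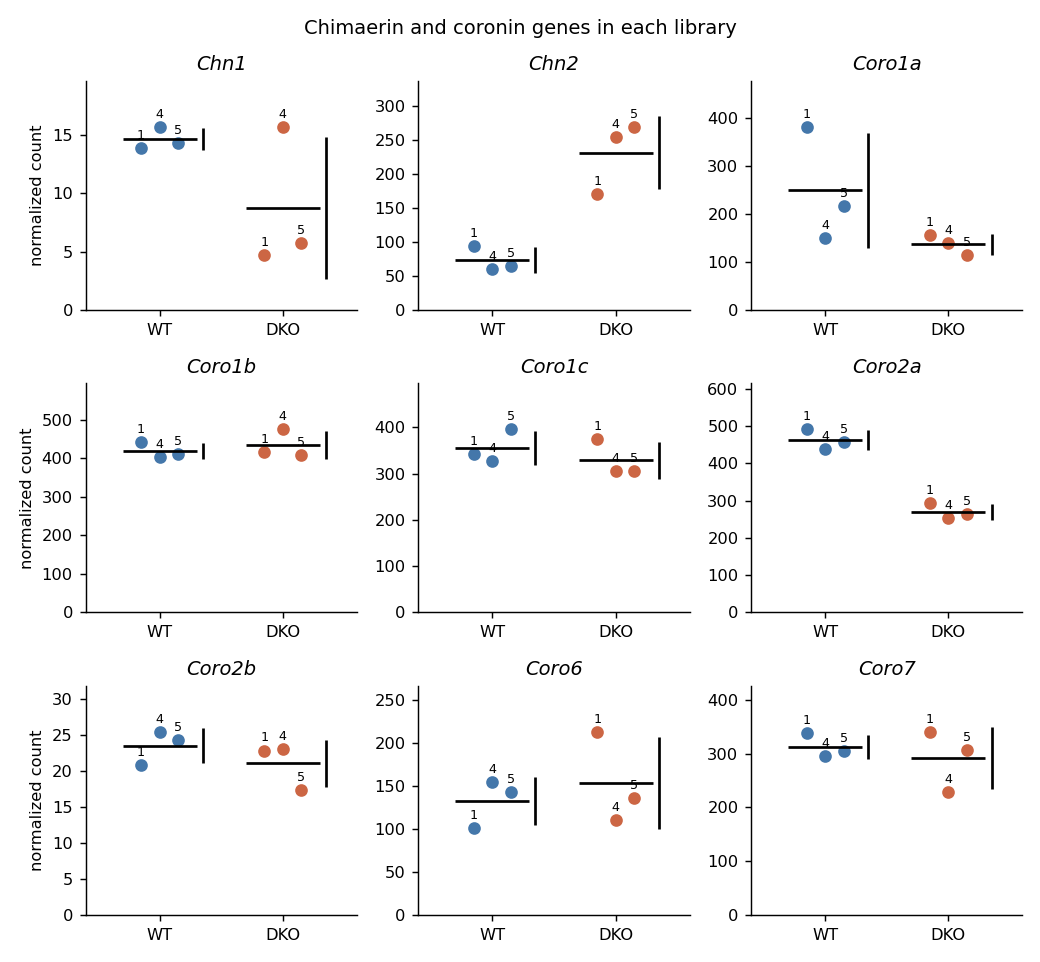
Normalized counts (y axis, linear from 0) of the 9 genes in the 3 WT and 3 DKO libraries, with the library number above each point, the group mean as a horizontal line and ± 1 SD as a vertical line. Of these 9, only Chn2 (60.6 to 95 against 171 to 270) and Coro2a (438 to 491 against 252 to 293) have WT and DKO libraries that do not overlap. Both were chosen by this contrast, and the libraries do not overlap in 20.3% of all rows tested.

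Coro2a, on the minus strand of chr4:46536937-46602202, was lower in every library labelled DKO. Normalized counts were 491, 438 and 457 in WT 1, 4 and 5 and 293, 252 and 264 in DKO 1, 4 and 5. No library came near the other group, and the lowest WT library stood 1.49 times above the highest DKO library. Coro2a averaged 462 ± 26.7 (SD, n = 3) in WT and 270 ± 21.2 (SD, n = 3) in DKO. The DKO level was 0.584 of the WT level, with a 95% interval of 0.483 to 0.707, a log2 difference of -0.77 with a standard error of 0.14. It was -0.85 without WT 5 and DKO 1. Within each group the libraries of Coro2a lay closer together, relative to their mean, than those of Chn2.

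Over all rows tested, DESeq2 called 539 rows at an adjusted p under 0.05, 2.90% of them, with 189 (1.02%) higher and 350 (1.88%) lower in DKO. WT and DKO libraries did not overlap in 20.3% of all rows, 9.85% with DKO higher and 10.5% with DKO lower. These shares are given as background only, since the same contrast chose both genes. Of the 7 paralogs, 0 were called and 0 had groups that did not overlap. At an unadjusted p under 0.05 there was 1 paralog, Coro1a, by each of DESeq2, edgeR and limma-voom, and after adjustment edgeR (10 of all rows called, 0.0537%) and limma-voom also called 0 paralogs.

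Coro2b, the other type II coronin and best known from the nervous system (chr9:62419492-62537044, minus strand), was sparse, with 21, 26 and 27 raw counts in WT 1, 4 and 5 and 24, 22 and 15 in DKO 1, 4 and 5. Its groups overlapped, DKO 5 alone lying under every WT library. Normalized means of Coro2b were 23.5 ± 2.41 (SD, n = 3) and 21 ± 3.23 (SD, n = 3). With a log2 difference of -0.16, a 95% interval of -1.03 to 0.72 and a DESeq2 adjusted p of 0.947, a change of the size seen in Coro2a lay inside the interval.

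Coro1a, the coronin of blood cells (chr7:126699773-126707787, minus strand), had the widest WT spread of the coronins. Normalized counts were 382, 150 and 216 in WT 1, 4 and 5 and 157, 140 and 114 in DKO 1, 4 and 5. WT 1 was far above every other library, and DKO 1 lay above WT 4, so the groups overlapped. Coro1a averaged 249 ± 120 (SD, n = 3) and 137 ± 21.8 (SD, n = 3). The log2 difference was -0.86 with a standard error of 0.29, and the DESeq2 p was 0.00358 before and 0.0762 after adjustment over all rows. Coro1a was thus not called with all libraries, and leaving out a single library brought a call only for WT 4. Without WT 4 the log2 difference of Coro1a was -1.12 (DESeq2 adjusted p = 0.00435), and without WT 1 it was -0.41 (DESeq2 adjusted p = 0.731). Leaving out WT 5 and DKO 1 gave -1.07 with a DESeq2 adjusted p of 0.272.

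Coro1b, a widely expressed type I coronin of the lamellipodium (chr19:4148619-4154035, plus strand), had normalized counts of 441, 403 and 411 in WT 1, 4 and 5 and 417, 475 and 409 in DKO 1, 4 and 5. The libraries of the groups overlapped, with DKO 4 the highest and WT 4 the lowest. Means were 418 ± 20.2 (SD, n = 3) and 433 ± 35.8 (SD, n = 3), with a log2 difference of 0.05, a 95% interval of -0.21 to 0.31 and a DESeq2 adjusted p of 0.941. The sign of this small value turned to -0.19 when libraries were scaled by total counts. The interval of Coro1b under median-of-ratios scaling did not reach -0.77, the value of Coro2a, which was chosen by this contrast.

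Coro1c, another widely expressed type I coronin (chr5:113842436-113908758, minus strand), had normalized counts of 343, 327 and 396 in WT 1, 4 and 5 and 374, 306 and 306 in DKO 1, 4 and 5. DKO 1 lay among the WT libraries and the other DKO libraries below them. The log2 difference of Coro1c was -0.11, with a 95% interval of -0.42 to 0.19 and a DESeq2 adjusted p of 0.869.

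Coro6, a type I coronin best known from muscle (chr11:77462411-77470484, plus strand), had normalized counts of 101, 154 and 143 in WT 1, 4 and 5 and 213, 110 and 136 in DKO 1, 4 and 5. The highest value was in DKO 1 and the lowest in WT 1, with the other libraries mixed between the groups. The log2 difference of 0.21 (95% interval -0.33 to 0.74, DESeq2 adjusted p = 0.86) turned to -0.11 without DKO 1 and to -0.05 without WT 5 and DKO 1.

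Coro7 (chr16:4626133-4679777, minus strand) had normalized counts of 338, 295 and 306 in WT 1, 4 and 5 and 341, 228 and 307 in DKO 1, 4 and 5. Only DKO 4 lay under the WT range. The log2 difference was -0.10, with a 95% interval of -0.45 to 0.24 and a DESeq2 adjusted p of 0.905, and it was 0.05 without DKO 4. The intervals of Coro1b, Coro1c, Coro6 and Coro7 lay above -0.77, the Coro2a value, while those of Chn1, Coro1a and Coro2b held it. Coro2a was chosen by this contrast and its value has an interval of its own. This sorting is therefore a description, and a difference between Coro2a and its paralogs was not tested.

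**Figure D2:**
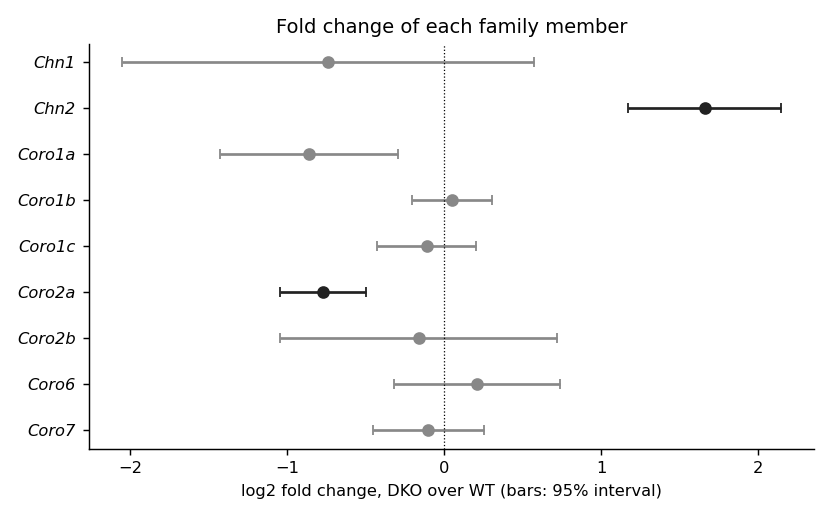
Log2 fold change of DKO over WT (x axis) for each of the 9 genes, with bars for the 95% interval of the DESeq2 estimate from 3 libraries a group. Chn2 at 1.66 and Coro2a at -0.77, drawn dark, were chosen by this contrast, and the 7 paralogs in grey run from -0.86 (Coro1a) to 0.21 (Coro6).

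Levels were compared between genes as normalized counts per kb of annotated exon. Coro1b had the highest level per kb in both groups, 131 ± 6.31 (SD, n = 3) in WT and 135 ± 11.2 (SD, n = 3) in DKO. In WT the order of levels per kb then ran Coro1a at 89.5 ± 43.0, Coro2a at 71.5 ± 4.13, Coro6 at 44.0 ± 9.27, Coro7 at 42.2 ± 3.01, Coro1c at 36.8 ± 3.74, Chn2 at 12.6 ± 3.24, Coro2b at 3.96 ± 0.407 and Chn1 at 2.30 ± 0.146 (SD, n = 3 each). Neighbours whose WT libraries did not overlap were Coro2a above Coro6, Coro1c above Chn2, Chn2 above Coro2b and Coro2b above Chn1, and the other neighbours in that order overlapped.

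In DKO, Chn2, Coro6, Coro1a, Coro2a, Coro7 and Coro1c took other places in the order than in WT. Chn2 stood at 39.9 ± 9.19 per kb in DKO, the fifth of the 9 against the seventh in WT, and Coro2a at 41.8 ± 3.28, the fourth against the third (SD, n = 3 each). In DKO the libraries of Coro6, Coro1a, Coro2a, Chn2, Coro7 and Coro1c overlapped from each gene to the next in order, between 34.0 ± 4.06 for Coro1c and 50.7 ± 17.7 for Coro6 (SD, n = 3 each). Coro1b above, and Coro2b and Chn1 below, stayed apart from this middle set. The order depends on the length used. Per kb of the longest transcript, Chn2 was the third in DKO and Coro2a the fifth, Coro6 went from the second to the seventh in DKO and from the fourth to the sixth in WT, and Chn2 and Coro2a kept the seventh and the third place in WT. Here, exons of all 15 Chn2 transcripts together span 5812 bases and those of the 7 Coro2a transcripts 6459.

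Chn2 made up most of the chimaerin level in every library. Its share of the level per kb of both chimaerins was 88.2%, 80.9% and 83.1% in WT 1, 4 and 5 and 97.5%, 94.7% and 98.1% in DKO 1, 4 and 5. Coro2a made up 16.2%, 18.0% and 17.2% of the coronin level per kb in WT 1, 4 and 5 and 11.6%, 11.5% and 12.4% in DKO 1, 4 and 5. The other 6 coronins summed to 1492 ± 137 normalized counts in WT and 1365 ± 138 in DKO (SD, n = 3 each), with overlapping libraries. These shares follow from the contrast that chose the genes and are descriptions.

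**Figure D3:**
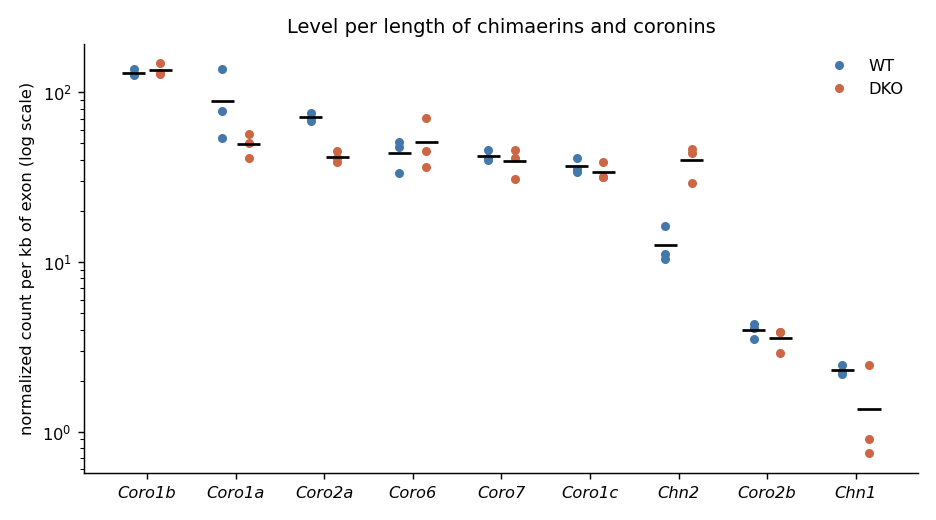
Normalized counts per kb of exon (y axis, log scale) of the 9 genes, in order of their WT mean, for the 3 WT and 3 DKO libraries, with means as black lines. Chn2 stands at 12.6 per kb in WT and at 39.9 in DKO, within the range of Coro7, and Coro2a at 71.5 in WT and at 41.8 in DKO, within the range of Coro6.

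The rows whose profiles over the 6 libraries were most like those of Chn2 and Coro2a were found among 11489 rows with a mean of at least 50 normalized counts. Likeness was the root mean square difference of log2(normalized count + 1) values centred on their mean, over 6 libraries, and it carries the contrast that chose both genes. Nearest to Chn2 were the neutral amino acid transporter gene Slc1a4 at 0.264, the synaptotagmin gene Syt6 at 0.312, the class II phosphoinositide 3-kinase gene Pik3c2g at 0.326 and the stress-inducible sestrin gene Sesn2 at 0.361, where the median row was at 0.872. Slc1a4 had 202, 214 and 205 normalized counts across WT 1, 4 and 5 and 373, 679 and 661 in DKO 1, 4 and 5. As in Chn2, DKO 1 was the lowest DKO library in each of these 4 genes.

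Coro2a had closer matches. Nearest were the smooth muscle actin gene Acta2 at 0.068, the glycolytic regulator gene Pfkfb3 at 0.074, the transcription factor gene Fli1 at 0.085 and the smooth muscle myosin gene Myh11 at 0.086, where the median row was at 0.433. Acta2 had 2695, 2429 and 2468 normalized counts across WT 1, 4 and 5 and 1730, 1456 and 1345 in DKO 1, 4 and 5. Myh11 had 4401, 4200 and 4302 in WT and 3021, 2431 and 2251 in DKO in the same order. Both are contractile genes that mark myoepithelial cells in this gland and smooth muscle elsewhere.

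**Figure D4:**
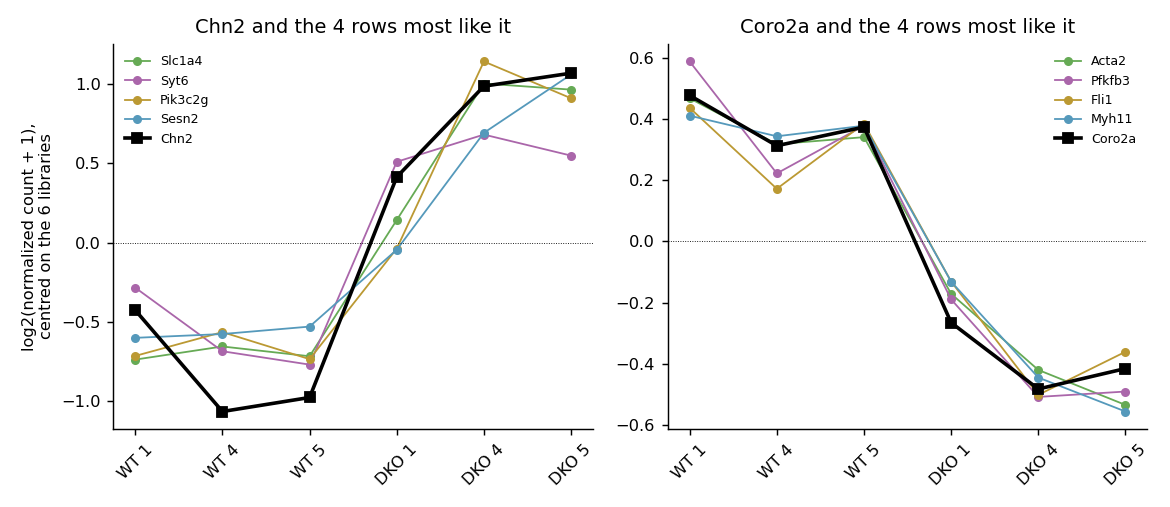
Log2(normalized count + 1) centred on the mean of the 6 libraries (y axis) in each library (x axis) for Chn2 with its 4 nearest rows and for Coro2a with its 4 nearest rows. Lines join libraries only to guide the eye, since libraries of a group have no order. Around Chn2 the 4 rows lie at root mean square differences of 0.264 to 0.361, and around Coro2a at 0.068 to 0.086.

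Marker lists of the cell types a gland holds were set beside the members. Over all rows DESeq2 called 1.02% higher and 1.88% lower in DKO, the background for the counts below. The DESeq2 calls below were fewer with edgeR, which called 1 granular duct gene and 0 genes of every other list. Coro2a, chosen by this contrast, was lower in DKO, and so was most of the myoepithelial list. Of its 7 genes tested, 6 were called lower in DKO and 0 higher by DESeq2, among them Cnn1 (log2 difference -0.99), Tagln (-0.80), Mylk (-0.77) and Acta2 (-0.74), while the basal keratin Krt5 was at -0.01. Oxtr had too few counts to be tested. Summed normalized counts of the list were 10167 to 10993 in WT and 5557 to 7361 in DKO, and no listed gene tested was at 0. The median gene of the list stood at 0.43, 0.33 and 0.37 above its 6-library mean on the log2 scale in WT 1, 4 and 5 and at -0.13, -0.42 and -0.53 in DKO 1, 4 and 5, and Coro2a at 0.48, 0.31 and 0.37 and then at -0.26, -0.48 and -0.42.

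Most of the granular duct list was also lower in DKO, the direction in which the contrast chose Coro2a. The median gene of the list stood at 0.42, 0.38 and 0.52 on the centred log2 scale in WT 1, 4 and 5. It stood at -0.60, -0.50 and -0.20 in DKO 1, 4 and 5. Within the groups neither list kept the order of Coro2a, which was highest in WT 1 and lowest in DKO 4. The median duct gene was highest in WT 5 and lowest in DKO 1. The median myoepithelial gene was highest in WT 1, as Coro2a was, but lowest in DKO 5. DESeq2 called 6 of the 8 listed duct genes lower in DKO, among them the kallikrein genes Klk1b24 (-1.17), Klk1b22 (-0.95) and Klk1b3 (-0.94). Not called were Klk1, the most abundant gene of the list, which went the other way at 0.28, and Ren1 at -1.40. Ren1 had 93 counts in WT 5 and 119 in DKO 1, far under the other libraries. The list's median log2 difference was -0.93. Its summed counts, dominated by Klk1, overlapped between the groups at 259677 to 355097 in WT and 246364 to 344046 in DKO. The part of either list in the Coro2a difference was not tested.

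Coro1a and the medians of both white blood cell lists were highest in WT 1, then in WT 5, and lowest in DKO 5. The leukocyte list had 5 of 12 genes called lower in DKO by DESeq2, with a median log2 difference of -1.46, and the macrophage list 4 of 8 with a median of -0.70. The count for leukocytes was 0 without WT 5 or without DKO 5, 1 without WT 1 or without DKO 4, and 9 without WT 4, and for macrophages 0 without WT 5 and 1 without WT 1, without DKO 4 or without DKO 5. Without WT 5 and DKO 1 together it was 1 for each list. The integrin gene Itgal had 204, 61.6 and 132 normalized counts across WT 1, 4 and 5 and 72.1, 33.4 and 31.1 in DKO 1, 4 and 5, and the pan-leukocyte gene Ptprc had 1499, 617 and 1007 against 544, 357 and 288.

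In both genes and in Coro1a, WT 1 was highest and WT 4 the lowest of the WT libraries. The centred log2 value of Coro1a was 1.10, -0.24 and 0.28 in WT 1, 4 and 5 and -0.17, -0.34 and -0.63 in DKO 1, 4 and 5, and that of the median leukocyte gene was 1.40, 0.00 and 0.84 and then -0.33, -0.42 and -1.16. Lcp1, the most abundant gene of the leukocyte list, did not follow this pattern, with a log2 difference of 0.27, its highest WT library in WT 4, and means of 4392 ± 409 in WT and 5313 ± 751 in DKO (SD, n = 3 each). Summed counts of the list, most of them from Lcp1, overlapped at 6110 to 6998 in WT and 5525 to 6720 in DKO. The defining T cell marker Cd3e was close to 0, at 24, 4 and 15 raw counts in WT 1, 4 and 5 and 0, 3 and 1 in DKO 1, 4 and 5. Macrophage sums were 2092 to 3386 in WT and 1505 to 2058 in DKO. What part these cells had in the Coro1a difference was not tested.

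Beside Chn2, the lists with a median above 0 were those of acinar, endothelial and red blood cells. DESeq2 called 2 of 10 acinar genes higher, the protein disulfide isomerase gene Agr2 (log2 difference 1.11) and the water channel gene Aqp5 (0.54), and the count ran from 1 to 4 when a library was left out. The acinar list was mixed, with a median of 0.22, 6 genes above 0 and 4 below. Those below were Smgc at -1.54 (not called), Muc19 at -3.88, Bpifa2 at -4.45 and Prb1 at -5.26. Muc19, Bpifa2 and Prb1 got no adjusted p, so they could not be called, and all were highest in WT 5. Bpifa2 had 105, 101 and 88122 counts in WT 1, 4 and 5, and Prb1 had 0, 1 and 162. The list's sums overlapped at 575597 to 816883 in WT and 605829 to 745876 in DKO. In WT 5 the sum held 55665 normalized counts of Muc19 and 78927 of Bpifa2. Red blood cell genes had 4 of 5 called higher, all of them globins, with a list median of 1.21 and sums of 863 to 1772 in WT and 2824 to 3167 in DKO. The centred log2 value of Chn2 was -0.43, -1.07 and -0.98 in WT 1, 4 and 5 and 0.41, 0.99 and 1.07 in DKO 1, 4 and 5, and that of the median acinar gene -0.44, -0.15 and -0.09 and then 0.21, 0.28 and 0.09. Without WT 5 and DKO 1, 1 acinar and 2 red blood cell genes were called. The part of these lists in the Chn2 difference was not tested. The endothelial list had 7 of 7 genes above 0 and a median of 0.29. In 4 genes the DKO libraries were all above the WT libraries, as in 9.85% of all rows. DESeq2 called 0 of the 7 (4 at an unadjusted DESeq2 p under 0.05, 0 called by edgeR), beside 2.90% of all rows. Schwann cell genes had a median of -0.02 and 0 of 7 called (0 unadjusted by DESeq2, 0 called by edgeR).

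**Figure D5:**
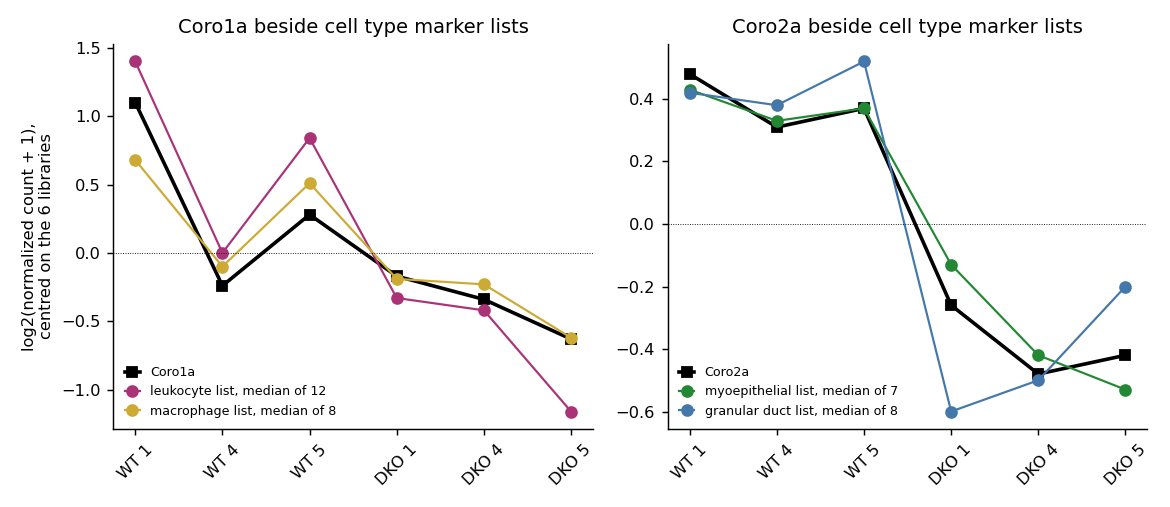
Centred log2(normalized count + 1) (y axis) in each library (x axis) of Coro1a with the medians of the leukocyte (12 genes) and macrophage (8 genes) lists, and of Coro2a with the medians of the myoepithelial (7 genes) and granular duct (8 genes) lists. Lines only guide the eye. Coro1a and both white blood cell lists are highest in WT 1. Coro2a and the medians of the myoepithelial and granular duct lists are above 0 in all WT and below 0 in all DKO libraries. Coro2a was chosen by this contrast, so sharing this direction with a list is a description.

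Of the genes next to Chn2 and Coro2a, none was called by DESeq2, which called 2.90% of all rows. With so few genes tested, this count does not set them apart from other rows. Within 300 kb of Chn2, 15 genes are annotated, 12 had a row and 6 were tested, and DESeq2 called 0 of the 6 (0 at an unadjusted p under 0.05, and 1 by edgeR and by limma-voom). All 6 had log2 differences below 0, from -0.54 for Prr15 to -0.07 for Wipf3, with Tril, Scrn1, Fkbp14 and Plekha8 between. Only in Fkbp14 (-0.46) did the groups not overlap, as in 20.3% of all rows. The closest, Prr15, had 112, 81.2 and 68.1 normalized counts across WT 1, 4 and 5 and 42.7, 61.7 and 76.1 in DKO 1, 4 and 5.

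Around Coro2a 15 genes are annotated, 14 had a row and 7 were tested, and DESeq2 called 0 of them (1 at an unadjusted p under 0.05, and 0 by edgeR and by limma-voom). Trim14, 0.796 kb from Coro2a, had a log2 difference of -0.37 with an adjusted p of 0.582 by DESeq2. Tbc1d2, 2.19 kb away on the other side, was at 0.06 with an adjusted p of 0.965 by DESeq2. Anp32b and Nans were at 0.09 and 0.26. Hemgn, Gabbr2 and the small RNA gene Gm22247 had 10 counts or fewer in every library. Hemgn and Gm22247 got no adjusted p, and Gm22247 gave the highest log2 difference of the 7, 1.01.

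The libraries were unstranded, so reads where genes overlap cannot be assigned by strand. Chn2 shares 552 exon bases, 9.50% of its own, with 9130019P16Rik on the other strand, which had 2, 2 and 0 counts in WT 1, 4 and 5 and 2, 0 and 1 in DKO 1, 4 and 5. The rows of Gm15527, 9530036M11Rik and Gm15526 inside the Chn2 span held 0 to 2 counts in every library. Coro2a shares 329 bases, 5.09%, with Gm16731, which had 1, 0 and 1 counts in WT and 1, 4 and 1 in DKO. Among the paralogs, Coro1b shares 432 bases, 13.5%, with the lymphocyte gene Ptprcap on its own strand, whose row held 3, 0 and 1 counts in WT and 0 in each DKO library. How reads in shared bases were counted is not given in the sources used here.

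The genes that work with chimaerins and coronins were taken as 7 lists with 118 genes tested. DESeq2 called 3 of them, all lower in DKO, which is 2.54% beside the 2.90% of all rows. Among 15 other Rac-directed GTPase-activating proteins 1 was called, Arhgap15, a gene known from leukocytes. It had 229, 97.8 and 126 normalized counts across WT 1, 4 and 5 and 63.6, 40.8 and 41.5 in DKO 1, 4 and 5. Its log2 difference was -1.63 with a standard error of 0.34 and an adjusted p of 4.05e-04 by DESeq2, against 0.132 by edgeR and 0.2 by limma-voom. The highest WT library of Arhgap15 was WT 1, as for Coro1a, Itgal and Ptprc, and the part of white blood cells in its difference was not tested. The median log2 difference of this list was -0.10, beside 0.00 for all rows.

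The exchange factors that load Rac with GTP had 1 of 22 called, Vav3, at 447, 376 and 433 normalized counts across WT 1, 4 and 5 and 339, 250 and 295 in DKO 1, 4 and 5. Its log2 difference was -0.51 with an adjusted p of 0.0472 by DESeq2. Among 20 other proteins with a diacylglycerol-type C1 domain, protein kinase C theta (Prkcq), known from T cells, was the 1 called. It had 67.3, 24.5 and 52.8 normalized counts across WT 1, 4 and 5 and 20.9, 14.6 and 16.1 in DKO 1, 4 and 5, a log2 difference of -1.48 with an adjusted p of 0.0475 by DESeq2. Both calls were lost with edgeR, limma-voom, the replicate block (DESeq2 adjusted p = 0.155 for Vav3 and 0.233 for Prkcq) or independent filtering off, and without any of WT 1, WT 5, DKO 4 or DKO 5, and the highest DESeq2 adjusted p was that without WT 1, at 0.378 for Vav3 and 0.501 for Prkcq. The lists had medians of -0.09 and -0.08.

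Rac GTPases and their effectors had 0 of 21 called (4 at an unadjusted DESeq2 p under 0.05, 0 adjusted by edgeR) and a median of -0.12, with Iqgap1 at -0.12 and Nckap1, a subunit of the WAVE complex, at -0.14. The Arp2/3 complex and its activators, the partners of type I coronins, had 0 of 17 called (3 unadjusted by DESeq2, 0 adjusted by edgeR) and a median of -0.01, with the subunit Actr2 at -0.00 and cortactin (Cttn) at 0.09. In the cofilin and actin turnover list 0 of 17 were called (2 unadjusted by DESeq2, 0 adjusted by edgeR), the median was -0.08, and destrin (Dstn) and Wdr1 were at 0.15 and 0.00. NCoR complex genes, the partners of Coro2a in the nucleus, had 0 of 6 called (0 unadjusted by DESeq2, 0 adjusted by edgeR) and a median of 0.00, with Ncor1 at -0.08. NCoR genes ran only from -0.10 to 0.10. Single members of the Rac GTPase and effector, Arp2/3 and cofilin lists lay further from 0 without being called. The lowest in these lists were the blood cell genes Rac2 (-1.18, DESeq2 adjusted p = 0.0869), Hcls1 (-0.91, DESeq2 adjusted p = 0.0718) and Gmfg (-0.82, DESeq2 adjusted p = 0.21). The highest were Wasf1 (0.49, with 0 to 5 raw counts a library and no adjusted p), Arpc5l (0.30) and Dstn (0.15). All of these but Dstn were named after their values were seen.

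Windows of 250 bases before each RefSeq start (GRCm38.p6) were compared for the dinucleotide CG, for the 8 members with an entry (Coro1b had none). The outermost Chn2 window held 34 CG and that of Coro2a 33, numbers reached by 3.53% and 4.03% of 32851 windows, whose median was 6. All 250 bases of both windows lie inside annotated GENCODE exons of the gene, since GENCODE starts it further upstream, while the Chn1 window (31 CG) has 0 such bases. The 3 inner Chn2 windows held 7, 2 and 4 and the inner Coro2a window 3. Of the 6 paralogs with an entry, 3 had a similar first window, Chn1 (31), Coro1c (34) and Coro6 (28), and 3 had fewer CG, Coro1a (13), Coro2b (15) and Coro7 (14). Counts per gene do not say which of these starts was used.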

How the data were processed

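RNA was sequenced from 3 WT and 3 DKO female SMGs with an unstranded Nextera XT kit. Per the study's methods the groups were compared with DESeq2, and the submitters' processing notes name STAR 2.5.2a and the builds GRCh38, GRCm38 and mm10. The counting tool and its annotation are not given in the sources used here. Raw counts, keyed by symbol, were deposited in an unfiltered table (43280 rows, every column assigned to a library), which was used here, and the deposited filtered counts and CPM values were not. Rows with at least 10 counts over the 6 libraries (18606) were tested with DESeq2 1.42.0 (R 4.3.3, Wald test, median-of-ratios scaling, Benjamini-Hochberg adjustment, called at an adjusted p under 0.05). The design of 3 against 3 allows no exact permutation p under 0.1 for a single gene. Alternatives were edgeR 4.0.16 (quasi-likelihood), limma-voom 3.58.1, TMM or total counts as scaling, other filters, a replicate block, leaving out each library, and exon lengths from the longest transcript. The fits were tested on simulated data.

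Coordinates, lengths and neighbours came from GENCODE M21 (GRCm38) by symbol. Libraries were grouped by their titles. The members and the gene and marker lists were chosen with earlier results of these data known. Named genes were the members, list genes called (at most 4 a list, otherwise the 2 with the highest mean), overlapping and neighbouring genes, the 4 rows most like Chn2 and Coro2a, and the targeted genes; other names were chosen after their values were seen. A few list genes that this rule names are not reported here. The marker list alternatives and the fit without WT 5 and DKO 1 were added after seeing the data. Adgre1 was matched to its older symbol Emr1. Total counts of 23674258 to 29611975 a library left counting error large only for genes such as Chn1 and Coro2b. No protein or promoter sequence is printed.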

Additional observations from a re-analysis of the deposited data

How the results depend on the processing

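Chn2 kept its direction under all alternatives run, with log2 differences of 1.54 to 1.89 when a library was left out, and Coro2a likewise at -0.84 to -0.73. Both were chosen by this contrast and their groups did not overlap, so leaving out a library could hardly turn the direction. With total counts as scaling Chn2 was at 1.40 and Coro2a at -1.01, where the median of all rows moved to -0.23, and Coro1b turned to -0.19. When a library was left out, Coro1b ran from -0.02 (without DKO 4) to 0.09, Coro6 from -0.11 (without DKO 1) to 0.40 and Coro7 from -0.23 to 0.05 (without DKO 4). Coro6 was at -0.05 without WT 5 and DKO 1. The other 98 of 105 alternative values of the paralogs kept their direction and their side of the threshold. Paralogs called were 0, but 1 with total counts (Coro1a, -1.11, DESeq2 adjusted p = 0.0101), and 0 to 1 when a library was left out.

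Of all rows, 539 were called by DESeq2, 10 by edgeR, 7 by limma-voom, 1469 with total counts, 183 without WT 5 and DKO 1, and 149 (without WT 5) to 817 (without WT 4) when a library was left out. The split of 189 higher and 350 lower became 62 and 1407 with total counts. The 3 list genes called became 0 with edgeR and with limma-voom, 21 with total counts, 1 without independent filtering, 1 without WT 5 and DKO 1, and 1 to 11 (without WT 4) when a library was left out. The causes were not tested.

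Deviations of same-numbered libraries correlated at -0.13, -0.02 and -0.26, against 0.45 for WT 5 with DKO 1 and 0.44 for WT 4 with DKO 5. These values showed no likeness by replicate number, but they cannot tell whether the numbers mark litters or shared processing. With the replicate block 343 rows, 2 list genes (Arhgap15 and Dock2, the latter at a DESeq2 adjusted p of 0.139 without the block) and 0 paralogs were called, with Chn2 at 1.66 and Coro2a at -0.78.

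Per kb of the longest transcript, levels in WT and DKO were 24.6 and 77.7 for Chn2, 143 and 78.6 for Coro1a, 149 and 154 for Coro1b, 69.3 and 64.0 for Coro1c, 111 and 64.9 for Coro2a, 6.50 and 5.82 for Coro2b 47.3 and 54.5 for Coro6, 72.9 and 67.9 for Coro7, and 3.61 for Chn1 in WT, since the shorter length divides the same counts. Counts of 5 to 27 a library limit Chn1 and Coro2b.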
